A study of Mus musculus with 12 samples.

Results

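The smooth muscle cluster of miR-143 and miR-145 was examined in mouse hearts through 3 of its mature miRNAs, mmu-miR-143-3p, mmu-miR-145a-5p and mmu-miR-145a-3p, out of 1881 miRNAs on the array (the species prefix is left out from here on). The set was chosen by the measured signal of miR-145a-5p, 1 of 2 miRNAs that stayed above the control level in treated diabetic hearts. The question was whether its cluster mate miR-143-3p stayed above the control level too. The signals of miR-145a-5p in treated diabetic and in untreated diabetic hearts against control hearts therefore chose it and are given below as a description only.

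The hearts came from male C57BL6/J mice that entered the study at 6 to 7 weeks of age and were 5 months old at sampling. In each of 4 groups, 3 hearts were measured on 1 array each, which gave 12 arrays. Control mice (C) received no streptozotocin and no pargyline, and control mice treated with pargyline (C + P) received pargyline, an inhibitor of monoamine oxidase (MAO), at 50 mg/kg per day for 12 weeks. Diabetic mice (D) were given 5 daily doses of 50 mg/kg of streptozotocin, which destroys the pancreatic cells that make insulin, and diabetic mice treated with pargyline (D + P) were given both agents at these doses. The diabetes in this model therefore came from a toxin given to all D and D + P mice and to no C or C + P mouse. The sample records call the tissue heart muscle but name macrophages in their RNA extraction text. The cardiomyocyte miRNAs miR-1a-3p, miR-133a-3p, miR-133b-3p, miR-208a-3p and miR-499-5p were detected on all 12 arrays, while miR-208b-3p, of the slow myosin gene Myh7, was detected on 0 of 12.

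MiR-143 and miR-145 are neighbouring hairpins that are processed from 1 primary transcript and are best known from vascular smooth muscle, where serum response factor and myocardin drive them and where they favour the contractile state of the cell. In the heart they are mainly found in the smooth muscle of the coronary vessels and in other stromal cells, so a whole heart extract mixes their level per cell with the number of such cells. MiR-143 represses, among others, the kinase Erk5 and the transcription factor Elk1, and miR-145 represses Klf4 and Klf5, which drive the dedifferentiation of smooth muscle. In the RefSeq gene table (GRCm38.p6), Mir143 and Mir145a both lie within the span of Carmn, their long noncoding host gene.

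The mature sequences shown here are those of miR-22-5p, the other miRNA that met the selection for D + P against C, and of the miRNAs whose profile over the arrays was most like that of 1 of the mates, since the 2 mates drew different sets of neighbours. Capitals mark the seed, bases 2 to 8 counted from the 5′ end, which sets the targets of a miRNA. Of 11 miRNAs named for these reasons, 10 were searched in the RefSeq miRNA table (GRCm38.p6) and 9 matched. No pair of these 9 shared a seed. MiR-23b-3p was not matched and miR-1a-3p was not searched, so the seeds of these neighbours of miR-143-3p were not compared. The first sequence is that of the miRNA of the selection, the next 3 go with miR-143-3p and the last 5 with miR-145a-5p.
miR-22-5p: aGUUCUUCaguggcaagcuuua
miR-23a-3p: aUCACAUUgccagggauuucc
miR-101c: aCAGUACUgugauaacuga
miR-93-5p: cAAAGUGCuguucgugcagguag
miR-3098-5p: uCCUAACAgcaggaguaggagc
miR-8101: gGCGAGCGgagccggaggagcc
miR-24-3p: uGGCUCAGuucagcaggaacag
miR-27b-3p: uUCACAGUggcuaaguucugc
miR-29a-3p: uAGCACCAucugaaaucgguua

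In that build miR-23a-3p lay at chr8:84208563-84208583 on the plus strand, and 1 of the 2 loci of miR-24-3p lay at chr8:84208875-84208896, downstream in the same cluster. MiR-27b-3p lay at chr13:63300760-63300780 on the plus strand. The remaining positions were chr9:3038680-3038698 (minus) for miR-101c, chr5:138165574-138165596 (minus) for miR-93-5p, chr6:125195807-125195828 (plus) for miR-3098-5p, chr11:102230103-102230124 (minus) for miR-8101, chr6:31062673-31062694 (minus) for miR-29a-3p and chr11:75463734-75463755 (plus) for miR-22-5p.

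Detected miRNAs numbered 144 to 163 on the C arrays, 165 to 203 on those of D, 187 to 218 on those of D + P and 214 to 253 on those of C + P, and the summed signal was lowest in C (27107 to 35028) and highest in C + P (57895 to 89040). Slide 1 carried the hearts without pargyline and slide 2 those with it, so that pargyline and slide cannot be told apart. On each slide the diabetic hearts filled row 2 and the others row 1, so that diabetes and array row cannot be told apart either. Effects of slide and row that add up cancel in the interaction of diabetes with pargyline. Array brightness before normalization did not add up in this way. Over the 128 miRNAs detected on all arrays, the median log2 step from C to C + P was 1.15. The same step from D to D + P was -0.12. The cancelling therefore does not cover array brightness, and how much of it normalization left in the interaction was not tested. D + P replicate 1 stood apart from the other D + P arrays in miR-143-3p. In miR-145a-5p it was the highest of them after normalization (5.14 against 4.72 and 4.60). Before normalization its miR-145a-5p signal (30.4) was close to the others (33.2 and 31.4). The differences of the mates, their ratio and their correlation over all hearts are given with and without D + P replicate 1. The correlation within slide 2, the most similar miRNAs and the lists of cell markers are given only with it. The number of arrays, 3 per group, set the precision.

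MiR-143-3p and miR-145a-5p were detected on all 12 arrays. The passenger strand miR-145a-3p, which is cut from the other arm of the miR-145a hairpin, was detected on 0 of 12 arrays, and so were the passenger strand miR-143-5p and the related miR-145b. An undetected miRNA is written as 0.1 by the scanner software, and no level or comparison is given for these 3. Of the 3 selected miRNAs, 2 thus passed the filter that asked for detection on all arrays, which 128 of 1881 miRNAs passed. The scanner software's error was 7.23% to 9.14% of the signal for miR-143-3p and 8.27% to 17.7% for miR-145a-5p, with the highest error on C replicate 2. MiR-143-3p lay 16.5 to 101 times above the lowest detected signal of its array and miR-145a-5p 4.55 to 23.5 times, so miR-145a-5p was nearer to the detection limit, above all in C.

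The scanner signal of miR-143-3p was 37.1, 28.9 and 31.9 in C, 78.9, 75.3 and 63.6 in D, 88.7, 86.0 and 156.1 in C + P and 31.7, 78.9 and 98.2 in D + P (replicates 1, 2 and 3). All C signals were below all D and C + P signals, and D + P replicate 1 fell inside the C range. The scanner signal of miR-145a-5p was 14.0, 7.89 and 12.2 in C, 26.3, 21.2 and 18.5 in D, 24.1, 23.2 and 35.8 in C + P and 30.4, 33.2 and 31.4 in D + P. All C signals of miR-145a-5p were the lowest, and the D + P signals were close to each other, also on replicate 1, where miR-143-3p was low. These signals were not scaled between arrays, and the median log2 difference over the 128 miRNAs was 0.77 for D against C and 1.15 for C + P against C, so a large part of the distance from C was shared by the whole array.

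**Figure D1:**
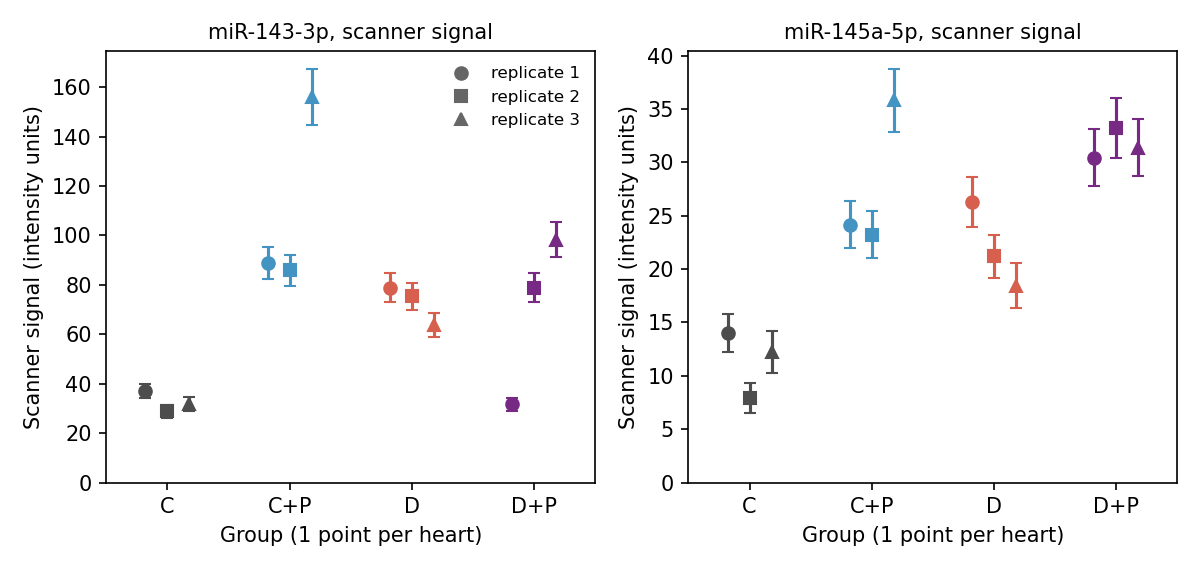
Scanner signal (intensity units, before normalization) of miR-143-3p and miR-145a-5p in each heart of the 4 groups, with 1 point per array and bars of the scanner software's error. D + P replicate 1 had 31.7 for miR-143-3p, inside the C range, and 30.4 for miR-145a-5p, above every C and D heart.

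The share of each mate in the summed signal of its array is a scaling by the total, which also moves with the other miRNAs of the array. MiR-143-3p took 0.1005% to 0.107% of the summed signal in C, 0.129% to 0.142% in D, 0.137% to 0.175% in C + P and 0.0798%, 0.156% and 0.168% in D + P replicates 1, 2 and 3. MiR-145a-5p took 0.0291% to 0.0400% in C, 0.0384% to 0.0429% in D, 0.0370% to 0.0417% in C + P and 0.0535% to 0.0768% in D + P. On this scale all D + P hearts lay above every other heart for miR-145a-5p, which the scanner signals did not show, since C + P replicate 3 (35.8) was the highest there. The lowest share of miR-143-3p among the 12 hearts was that of D + P replicate 1.

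After cyclic loess normalization the log2 signal of miR-143-3p was 5.58 ± 0.10 (SD, n = 3) in C, 5.91 ± 0.42 in D + P, 6.05 ± 0.05 in D and 6.22 ± 0.12 in C + P. The C hearts lay between 5.50 and 5.69, the D hearts between 6.00 and 6.10 and the C + P hearts between 6.09 and 6.33, while the D + P hearts were spread over 5.44, 6.06 and 6.23. In this order of means, D + P overlapped with every other group, and D and C + P overlapped with each other. The SD of D + P was the largest of the 4 groups. For miR-145a-5p the order was C with 4.02 ± 0.28, C + P with 4.30 ± 0.15, D with 4.40 ± 0.08 and D + P with 4.82 ± 0.28. The C hearts had log2 signals of 4.23, 3.70 and 4.14 and the D + P hearts of 5.14, 4.72 and 4.60, with C + P between 4.20 and 4.47 and D between 4.32 and 4.47. Neighbours in this order overlapped for C and C + P and for C + P and D, and D + P did not overlap with any group.

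**Figure D2:**
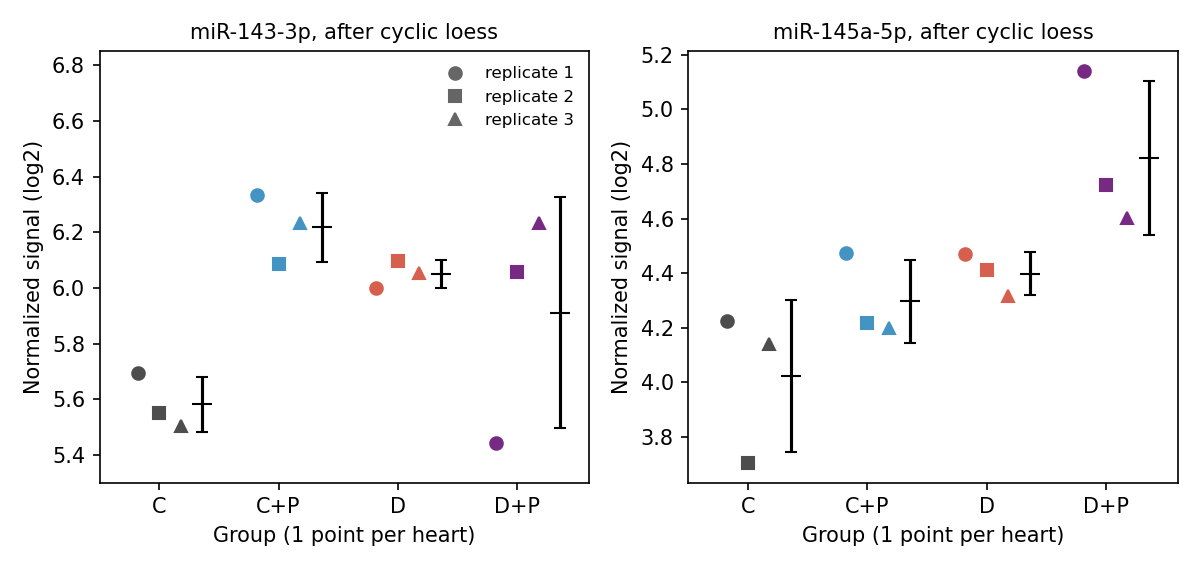
Normalized log2 signal of miR-143-3p and miR-145a-5p after cyclic loess, with 1 point per heart and, to the right of each group, the mean and SD of its 3 hearts. The D + P hearts of miR-145a-5p (4.60 to 5.14) lay above all others, and the D + P hearts of miR-143-3p ranged from 5.44, below every C heart, to 6.23.

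Diabetes without pargyline was examined first. MiR-143-3p rose in D against C by 0.47 on the log2 scale (SE 0.18, 1.38-fold, 95% interval 1.05 to 1.81), with an adjusted p of 0.047 (limma, Benjamini-Hochberg over 128 miRNAs). All 3 D hearts lay above all 3 C hearts. Of the 128 miRNAs tested, 50% passed in this comparison, 24.2% rose, and 35.2% were higher in D without overlap. The call was near the threshold and was lost in 10 of 12 fits that left out 1 array, where the difference stayed between 0.42 and 0.52. With each slide normalized alone it was 0.44, with an adjusted p of 0.064 (limma). The call was also lost, and the difference smaller, with scaling to the 75th percentile (0.31), with cyclic loess over all pairs of arrays (0.29) and with the control feature signal as a covariate (0.023, limma adjusted p of 0.96).

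The change with pargyline was compared in hearts without and with diabetes. Without diabetes, miR-143-3p rose in C + P against C by 0.64 (SE 0.18, 1.55-fold, 95% interval 1.19 to 2.04, limma adjusted p of 0.026), and the groups did not overlap. In this comparison 36.7% of the 128 miRNAs passed, 18% rose, and 37.5% were higher without overlap. The call was lost in 5 of 12 fits without 1 array, for example without C replicate 2 (0.62, limma adjusted p of 0.087). In diabetic hearts the difference was -0.14 for D + P against D (SE 0.18, 0.909-fold, 95% interval 0.693 to 1.19, limma adjusted p of 0.49), and the groups overlapped. The share of miRNAs that passed in D + P against D was 53.9%. This difference was 0.12 without D + P replicate 1, with an adjusted p of 0.39 (limma).

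Within the pargyline-treated hearts, miR-143-3p differed by -0.31 in D + P against C + P (SE 0.18, 0.808-fold, 95% interval 0.616 to 1.06, limma adjusted p of 0.20), and the groups overlapped. Of the 128 miRNAs, 13.3% passed in this comparison. The difference was -0.06 without D + P replicate 1, and without D + P replicate 3 it was -0.47 with an adjusted p of 0.035 (limma). The difference made by pargyline in diabetic hearts minus that in control hearts, the interaction, was -0.78 (SE 0.25, 95% interval -1.33 to -0.22, limma adjusted p of 0.018). MiR-143-3p was thus 1 of the 70.3% of miRNAs that passed the interaction test and of the 35.2% in which it was below 0. The interaction passed the threshold in all 12 fits that left out 1 array (-0.94 to -0.51), also without D + P replicate 1 (-0.51, limma adjusted p of 0.012). It was lost under 4 of the other alternatives, and with the control feature signal as a covariate it was -0.04.

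MiR-145a-5p was followed through the same comparisons. Its mean in D exceeded that in C by 0.38 (SE 0.18), and its mean in D + P exceeded C by 0.80 (SE 0.18, 1.74-fold). The hearts did not overlap in either case. An upward separation of this kind was found for 35.2% of the 128 miRNAs in the first case and 7.03% in the second. Both differences belong to the selection of miR-145a-5p and were not tested. In C + P against C it differed by 0.27 (SE 0.18, 1.21-fold, 95% interval 0.927 to 1.58, limma adjusted p of 0.22), and the groups overlapped. Without C replicate 2, which had the lowest signal of all arrays, this difference was 0.09, and the difference of D against C was 0.16. The next comparisons share the C or the D + P arrays with the selection and are not independent of it.

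All 3 D + P hearts had more miR-145a-5p than all 3 D hearts, as did 25.8% of the 128 miRNAs. The difference was 0.42 (SE 0.18, 1.34-fold, 95% interval 1.03 to 1.75) and missed the threshold with an adjusted p of 0.057 (limma, Benjamini-Hochberg). Against C + P, all D + P hearts were again higher, as in 21.1% of miRNAs, by 0.53 (SE 0.18, 1.44-fold, 95% interval 1.10 to 1.88, limma adjusted p of 0.058). Without D + P replicate 1 these differences were 0.25 and 0.37 (limma adjusted p of 0.20 and 0.16). They were 0.52 and 0.63 without D + P replicate 3 (limma adjusted p of 0.024 and 0.015), and D + P against D also passed without C replicate 2 (0.47, limma adjusted p of 0.042). All of these p-values reuse the D + P signals that chose miR-145a-5p, so a pass is not independent support for a rise. The interaction of miR-145a-5p was 0.15 (SE 0.25, 95% interval -0.39 to 0.69, limma adjusted p of 0.59), and it was -0.02 without D + P replicate 1.

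**Figure D3:**
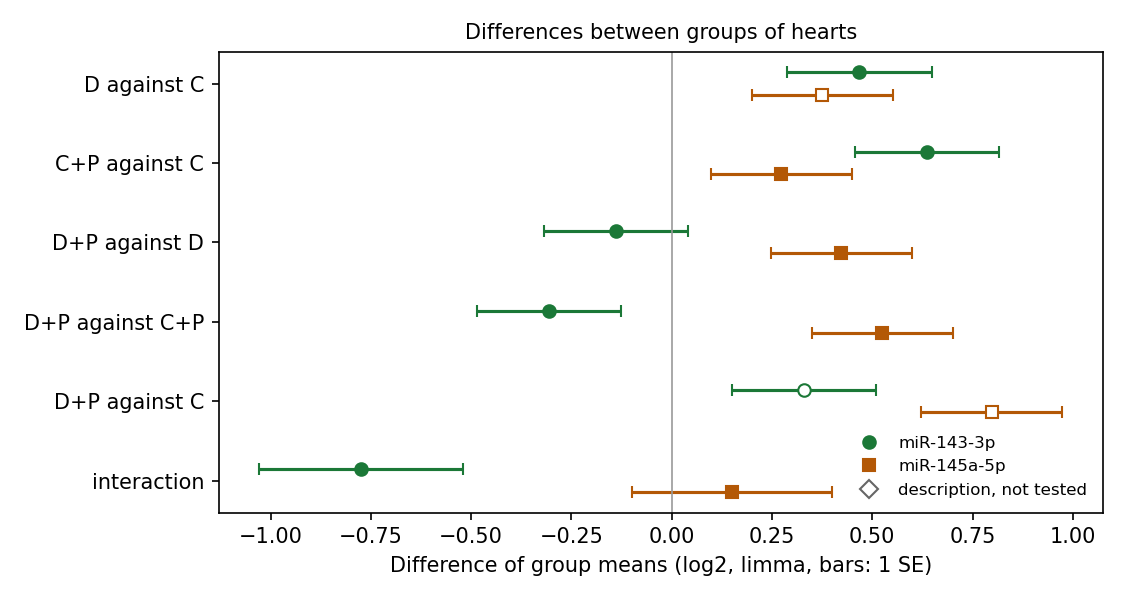
Difference of group means on the log2 scale for both mates in the 5 direct comparisons and the interaction, with bars of 1 SE from limma and open symbols where the difference belongs to the selection and was not tested. The mates of D + P against D and of D + P against C + P lay on opposite sides of 0 (-0.14 and 0.42, -0.31 and 0.53).

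Whether miR-143-3p also stayed above C in D + P differed among the 3 hearts. The mean of miR-143-3p was higher in D + P than in C by 0.33 (SE 0.18, 1.26-fold), a description without a test. D + P replicates 2 and 3 (6.06 and 6.23) lay above all C hearts, and replicate 1 (5.44) lay below all of them. Without replicate 1 the difference was 0.57, and without replicate 3 it was 0.17. For miR-145a-5p the same difference was 0.64 without D + P replicate 1, 0.64 without C replicate 2 and 0.90 without D + P replicate 3. The call in this comparison was made for 1.56% of the 128 miRNAs, which are the 2 of the selection, and 7.03% were higher without overlap.

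Inside the threshold of the selection were miR-22-5p, from a hairpin known from cardiac hypertrophy, with a difference of 0.95 in D + P against C, and miR-145a-5p with 0.80. Just outside it were miR-27a-3p with 0.65 and miR-378c with 0.46. MiR-22-5p lay between 2.69 and 2.90 in C, between 4.00 and 4.46 in D and between 3.59 and 4.09 in D + P, so its highest D + P heart was above its lowest D heart. MiR-145a-5p had D + P hearts (4.60 to 5.14) above all D hearts (4.32 to 4.47). The pair thus took different courses from D to D + P.

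The ratio of the mates within an array does not move with a common scaling of that array. The log2 ratio of the scanner signals of miR-145a-5p and miR-143-3p was -1.40, -1.87 and -1.38 in C, -1.59, -1.83 and -1.78 in D, -1.88, -1.89 and -2.12 in C + P and -0.06, -1.25 and -1.65 in D + P. Only its movement between arrays has a meaning, since the probes of both miRNAs differ in brightness. The 11 arrays other than D + P replicate 1 lay between -2.12 and -1.25, and replicate 1 lay outside this range, with a scanner error of 0.17 that covers the reading of the array and not the spread between animals.

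Since miR-145a-5p was selected on its signals in C, D and D + P, the differences of the ratio are a description with no test. The mean ratio of D + P exceeded that of C + P by 0.98 without overlap and that of D by 0.75 with overlap. The step from C to C + P was -0.41. There the highest C + P ratio (-1.8775, replicate 1) lay just under the lowest C ratio (-1.8724, replicate 2). The scanner errors of these arrays were 0.17 and 0.29, so their separation was within the reading error. How many other pairs of miRNAs separated in these ways was not counted. An exact permutation test of 3 against 3 arrays cannot give a p below 0.1. Without D + P replicate 1 the ratio in D + P was higher by 0.52 than in C + P, by 0.29 than in D and by 0.11 than in C. The ratio differed by -0.18 in D against C and by 0.57 in D + P against C with all arrays.

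**Figure D4:**
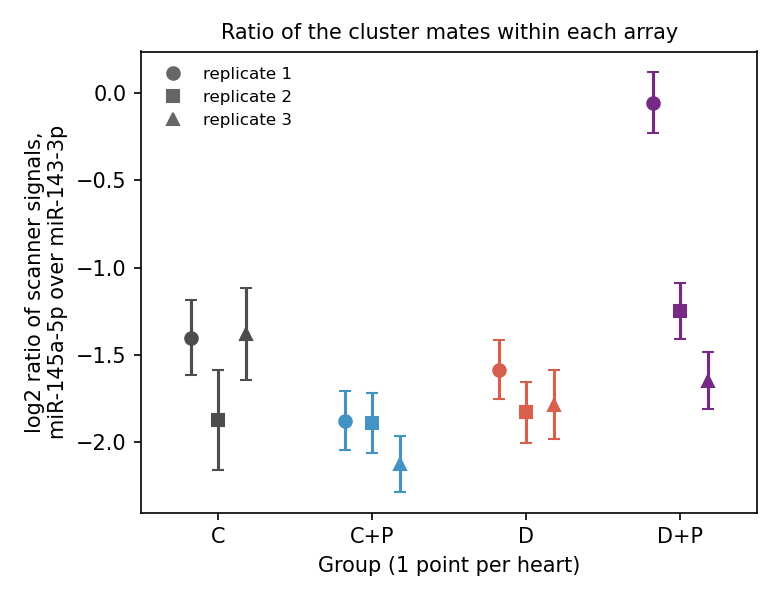
Log2 ratio of the scanner signals of miR-145a-5p and miR-143-3p within each array, with 1 point per heart and bars of the scanner error propagated to the ratio. D + P replicate 1 lay at -0.06 and the other 11 arrays between -2.12 and -1.25.

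Over the 12 hearts the normalized signals of the mates had a Pearson r of 0.08 (permutation p = 0.80) and a Spearman rho of 0.15 (permutation p = 0.65). Without the 2 arrays farthest from the median of miR-143-3p, D + P replicate 1 and C replicate 3, r was 0.68 (permutation p = 0.037) and rho 0.33 (permutation p = 0.35). Without D + P replicate 1 alone, r was 0.66 and rho 0.49 (permutation p = 0.024 and 0.13). The permutations here and below moved hearts freely between the groups. Their p-values therefore take in the steps between group means and do not measure how the mates vary together from heart to heart within a group. The low Pearson r over 12 hearts after cyclic loess thus depended on D + P replicate 1. With any other array left out, r stayed between -0.22 (without C replicate 2) and 0.14 (without C + P replicate 3). On the normalized signals made by the authors, r was -0.17 over all 12 hearts.

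Within slide 1, which held C and D, r was 0.78 (n = 6), a description, since it rests on the step from C to D that belongs to the selection of miR-145a-5p and in which both mates were higher without overlap. Within slide 2, which held C + P and D + P, it was -0.79 (exact permutation p = 0.063, n = 6). The sets of 10 to 12 hearts also hold C, D and D + P hearts of the selection, so none of these tests is independent of it. Before normalization r was 0.73 over the 12 hearts (permutation p = 0.0067), on signals that also carry the brightness of the array. Over the 12 coefficients computed on these 6 sets, no adjusted p passed the threshold (Benjamini-Hochberg over the permutation tests, lowest adjusted p = 0.0802).

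By correlation over the 12 arrays, a description of points that share arrays and normalization, the 5 miRNAs most like miR-143-3p were miR-23a-3p (r = 0.93), the muscle miRNA miR-1a-3p (r = 0.90), miR-101c (r = 0.89), miR-23b-3p (r = 0.88) and miR-93-5p (r = 0.88). MiR-145a-5p ranked 63 of 127 in this list. The 5 miRNAs most like miR-145a-5p were miR-3098-5p (r = 0.76), miR-8101 (r = 0.75), miR-24-3p (r = 0.74), miR-27b-3p (r = 0.64) and miR-29a-3p (r = 0.64), which represses collagen genes. MiR-143-3p ranked 51 of 127 among these. The lists shared no miRNA, and they divided between them miR-23b-3p and miR-27b-3p, which are themselves processed from 1 cluster.

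These neighbours were picked by correlation over the same arrays, so a course in the groups like that of the mate follows from the choice. Their values are a description. Among the neighbours of miR-143-3p, miR-23a-3p differed by 0.54 in D against C and by 0.54 in C + P against C, and had an interaction of -0.77. MiR-1a-3p had the same signs with larger sizes, 1.32, 1.48 and -2.19. Among the neighbours of miR-145a-5p, miR-3098-5p differed by 0.68 and miR-8101 by 0.42 in D + P against D, while miR-24-3p differed by 0.07.

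After normalization, the distance of D + P replicate 1 from the mean of the other D + P arrays was -0.70 for miR-143-3p and 0.48 for miR-145a-5p. Over the 128 miRNAs the 10th and 90th percentiles of this distance were -0.84 and 0.88, so each mate was inside the range of the array, at ranks 22 and 88 of 128 from the lowest. The mates thus took opposite sides of the other D + P hearts on this array. The distance between these percentiles, taken in the same way for each array against the others of its group, was 1.73 for D + P replicate 1, 1.41 for D + P replicate 3 and 0.37 to 0.78 for the other 10 arrays.

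Other pairs of miRNAs from 1 genomic cluster show how far mates part on these arrays. This comparison was added after the ratio had been seen. In the RefSeq gene table, 27 miRNAs of the 128 formed 20 other pairs on 1 strand within 10000 bases, and pairs share miRNAs, arrays and normalization. Their r over the 12 arrays had a median of 0.66 (-0.81 to 0.98), and 4 of the 20 were below the 0.08 of miR-143-3p and miR-145a-5p. The SD over arrays of the log2 ratio was 0.54 for miR-143-3p and miR-145a-5p and had a median of 0.24 (0.10 to 0.57) over the other pairs, of which 1 was larger, miR-15b-5p with miR-16-5p. Without D + P replicate 1 the mates had an r of 0.66 and an SD of 0.27, against a median SD of 0.20, and 7 of the 20 pairs were larger.

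**Figure D5:**
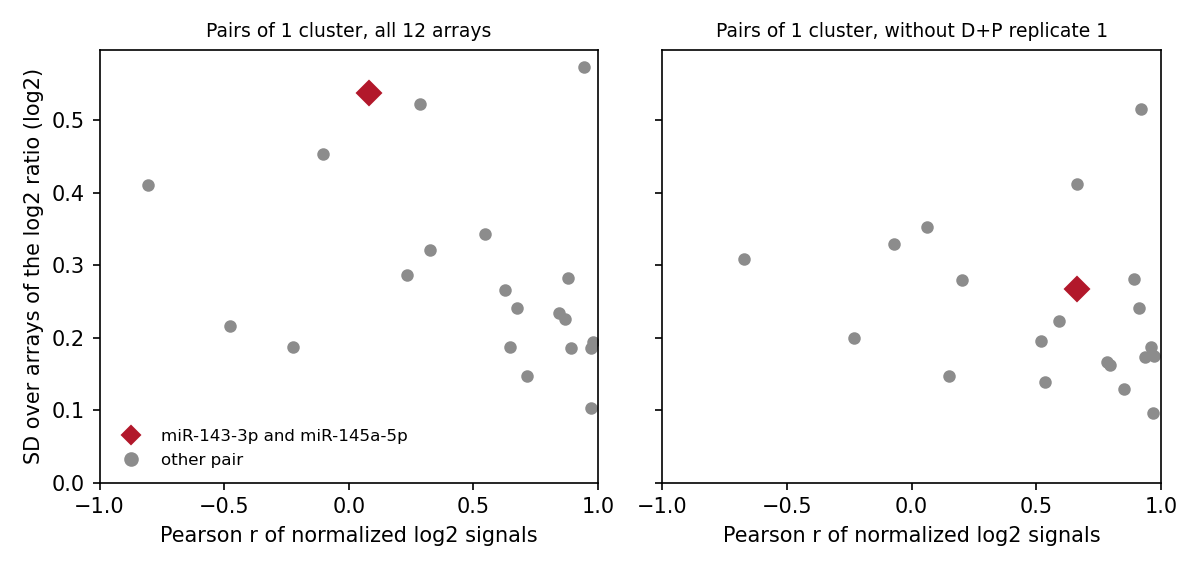
Pearson r of the normalized log2 signals (x axis) and SD over arrays of the log2 ratio of scanner signals (y axis) for miR-143-3p with miR-145a-5p (red diamond) and 20 other pairs of 1 genomic cluster (grey), with all 12 arrays on the left and without D + P replicate 1 on the right. The mates move from an r of 0.08 and an SD of 0.54 to 0.66 and 0.27.

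The table of normalized signals made by the authors held both mates and gave another picture of miR-145a-5p. There miR-145a-5p was at 30.7, 17.8 and 13.5 in C, 22.5, 17.9 and 17.7 in C + P, 28.0, 22.01 and 17.2 in D and 36.5, 21.8 and 20.0 in D + P. On these values D + P overlapped with C, and the difference was 0.37 on the log2 scale in place of 0.80. MiR-143-3p was at 64.5, 47.6 and 44.6 in C, 85.5, 70.6 and 81.2 in C + P, 64.7, 73.6 and 68.3 in D and 37.4, 59.9 and 77.1 in D + P. D + P replicate 1 was the lowest of all 12 hearts for miR-143-3p and the highest for miR-145a-5p on this table too. The differences of miR-143-3p were 0.42 in D against C and 0.61 in C + P against C, with adjusted p of 0.19 and 0.093 (limma). The scale of this table is not stated, and its column medians were 15.9 to 31.4. Across miRNAs, its log2 values correlated with the scanner signals of the same array with an r of 0.93 to 0.997.

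MiRNAs known from smooth muscle and its switch between contractile and proliferative states were taken as a list of 13, of which 9 were detected on all arrays. In D against C 3 rose and 1 fell, against 24.2% and 25.8% of all 128. The 3 that rose were miR-1a-3p (1.32), miR-23b-3p (0.73) and miR-195a-5p (0.68), and miR-22-3p, also known from the contractile state of smooth muscle, fell (-0.97). In C + P against C 3 rose and 2 fell, against 18% and 18.8% of all 128, with miR-1a-3p at 1.48, miR-146a-5p at 0.84, miR-23b-3p at 0.76, miR-26a-5p at -0.34 and miR-22-3p at -1.03. Under D + P against D none rose and 4 fell (26.6% and 27.3% of the 128), miR-146a-5p (-0.90), miR-195a-5p (-0.76), miR-1a-3p (-0.71) and miR-21a-5p (-0.43). None rose and 3 fell in D + P against C + P (5.47% and 7.81% of the 128), and 2 were above 0 and 5 below in the interaction test (35.2% each way).

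None of the 9 passed in D + P against C, where only 1.56% of all 128 miRNAs passed. Their median difference in it was -0.08 (-0.03 over all 128 miRNAs). Diabetes alone gave a median of 0.10 over the list (0.02 over all), pargyline alone 0.40 (-0.04), pargyline within diabetes -0.33 (-0.09) and diabetes within pargyline -0.36 (0.02), and the interaction had a median of -0.83 (-0.08). The difference of miR-143-3p had the sign of the list's median in each of the last 5, while in D + P against C both mates (0.33 and 0.80) had the opposite sign. That of miR-145a-5p had the opposite sign for pargyline within diabetes, diabetes within pargyline and the interaction. Other smooth muscle miRNAs, miR-221-3p, miR-222-3p, miR-10a-5p and miR-31-5p, were detected on 10, 1, 8 and 2 of the 12 arrays and were not tested.

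Markers of other cells of the heart were examined in the same way, with lists that overlap the smooth muscle list. MiR-1a-3p and miR-133a-3p are also in the cardiomyocyte list, miR-21a-5p in the fibroblast list and miR-146a-5p in the leukocyte list, so 3 of the 4 falls of the smooth muscle list in D + P against D were of shared members. Of 6 leukocyte miRNAs 3 were tested, and all 3, miR-142a-3p, miR-223-3p and miR-146a-5p, fell in D + P against D (-1.09, -1.30 and -0.90) and in D + P against C + P (-1.40, -1.68 and -1.77), where 27.3% and 7.81% of all 128 miRNAs fell. MiR-223-3p rose in D against C (1.03), and miR-223-3p and miR-146a-5p rose in C + P against C (1.40 and 0.84). MiR-142a-3p passed in neither of these comparisons, in which 24.2% and 18% of all 128 miRNAs rose. None of the 3 passed in D + P against C, where 1.56% of the 128 passed. The summed signal of the 6 was 0.0605% to 0.0933% of the array in C, 0.0925% to 0.115% in D, 0.161% to 0.197% in C + P and 0.0354% to 0.115% in D + P. Of 5 fibroblast miRNAs 3 were tested, 2 of which rose in D against C and in C + P against C and 2 of which fell in each comparison of D + P with D and C + P (24.2% and 18% of all 128 rose in the first pair of comparisons, 27.3% and 7.81% fell in the second). Among them miR-199a-3p rose in D against C (0.91) and in C + P against C (0.86) and fell in D + P against D (-0.80). The summed fibroblast share was 0.312% to 0.334% in C, 0.351% to 0.426% in D, 0.411% to 0.482% in C + P and 0.186% to 0.372% in D + P. MiR-21a-3p was detected on 0 of the 12 arrays.

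Of 3 endothelial miRNAs only miR-126a-3p was tested. It passed no direct comparison (0.20 in D against C, -0.20 in D + P against D), and miR-126b-5p was detected on 0 of 12 arrays. The summed endothelial share was 1.27% to 1.31% in C, 1.68% to 1.99% in D, 1.72% to 2.20% in C + P and 0.824% to 1.76% in D + P. The 6 cardiomyocyte miRNAs took 12.6% to 13.5% in C, 16.2% to 19.9% in D, 16.8% to 19.8% in C + P and 7.92% to 17.1% in D + P. Among them miR-1a-3p rose in D against C (1.32), miR-208a-3p fell (-0.78, limma adjusted p of 0.0073), and miR-133a-3p and miR-133b-3p differed by 0.0073 and 0.018. Of the 5 tested, miR-1a-3p and miR-499-5p fell in D + P against D (-0.71 and -0.48) and in D + P against C + P (-0.87 and -0.79). Of all 128 miRNAs, 27.3% and 7.81% fell in these 2 comparisons. The 4 red cell miRNAs on the array took 1.42% to 1.88% in C, 1.58% to 1.76% in D, 1.22% to 1.71% in C + P and 0.922% to 1.58% in D + P, and miR-144-5p was detected on 0 arrays. Of the 3 tested, none fell in D + P against D or against C + P. MiR-144-3p rose in the first (0.47) and miR-486a-5p in the second (0.76), where 26.6% and 5.47% of all 128 miRNAs rose. MiR-144-3p fell in D against C (-0.57) and miR-486a-5p in C + P against C (-0.85), where 25.8% and 18.8% of all 128 fell. The part of these cells in the differences of miR-143-3p and miR-145a-5p was not tested, and fewer cells of a type and less RNA per cell cannot be told apart in whole hearts.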

How the data were processed

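MiRNAs of 12 hearts were measured on 1-colour Agilent mouse miRNA arrays. Per the file headers, the authors deposited the scanner software's background-corrected intensity of each miRNA, its error and a detection flag, without normalization between arrays, and also a table of intensity values normalized by cyclic loess after a filter on detection. The members and the lists of miRNAs were chosen with earlier results of these data known.

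Cyclic loess (span 0.7, 3 iterations) was applied to the log2 signals of the 128 miRNAs detected on all 12 arrays, with limma 3.58.1 under R 4.3.3. All arrays entered 1 fit of 4 group means (lmFit, eBayes), with Benjamini-Hochberg adjustment over the 128 miRNAs and a threshold of 0.05. The interaction is D + P minus D minus C + P plus C. Differences used by the selection were not tested. Ratios are described, and correlations were tested by permutation tests that moved hearts freely between groups (100000 resamples, exact within slides). The miRNAs named are the 3 members, the 5 most correlated with each mate, those that passed and were higher in D + P than in C with the next 2 by adjusted p, and the members of the lists detected on all arrays. The miRNAs of the lists that were not detected on all arrays, miR-143-5p, miR-145b and 1 cluster pair were named beside this rule, after their values were seen. The fit was tested on simulated data. The methods give at least 3 biological replicates per condition and do not mention pooling, and each array was taken as 1 heart. Alternatives were other normalizations and filters, an offset of 16, the authors' values, the replicate block, the methods' t-test, an intensity trend, a covariate of 10 control features, and each array left out in turn. Cyclic loess over all pairs of arrays and the comparison with other cluster pairs were added after seeing the data.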

Additional observations from a re-analysis of the deposited data

Results flagged for a closer look

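The interaction of diabetes with pargyline for miR-143-3p was -0.78 on the log2 scale (limma adjusted p of 0.018), a tested difference between the change with pargyline in diabetic hearts (-0.14) and in control hearts (0.64). It was -0.51 without D + P replicate 1. The call was lost with scaling to the 75th percentile (-0.56), no filter (-0.83), cyclic loess over all pairs of arrays (-0.56) and the control feature covariate (-0.038, limma adjusted p of 0.96). Of the 128 miRNAs, 70.3% passed the same test.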

How the results depend on the processing

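The rise of miR-143-3p in D against C kept its direction in every alternative fit run, kept its call in 7 and lost it in 20. It was 0.54 with quantile normalization, 0.31 with scaling to the 75th percentile of the 128 miRNAs, 0.44 with each slide normalized alone, 0.51 with the filter asking for detection throughout 1 group only, 0.48 with no filter, 0.42 on the authors' values, 0.023 with the control feature covariate, 0.29 with cyclic loess over all pairs, 0.47 with the methods' t-test after Holm adjustment, and 0.42 to 0.52 without 1 array. In C + P against C it lost its call with no filter (0.67), on the authors' values (0.61), with the covariate (0.15), with the methods' t-test after Holm adjustment (0.64) and with all pairs (0.42), and was 0.58 to 0.70 without 1 array. Its interaction lost its call with the 75th percentile (-0.56), no filter (-0.83), the covariate (-0.038) and all pairs (-0.56). Its difference in D + P against D, never past the threshold, turned positive with the 75th percentile (0.058), the covariate (0.11) and without D + P replicate 1 (-0.30 to 0.12 without 1 array). In D + P against C + P it was -0.47 to -0.057 without 1 array, and in D + P against C 0.95 with no normalization and 0.17 to 0.57 without 1 array.

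MiR-145a-5p in D + P against D passed with the 75th percentile (0.81) and with 16 added before the log2 (0.26), and was 0.25 to 0.52 without 1 array. In D + P against C + P it passed with 16 added (0.33) and was 0.37 to 0.63 without 1 array. Its passes in both comparisons reuse the D + P signals of its selection. In C + P against C it passed with no normalization (1.30) and was -0.015 on the authors' values. Its interaction was -0.76 with no normalization, -0.24 with the covariate and -0.021 to 0.39 without 1 array. The described difference of D + P against C was 1.52 with no normalization, 0.43 with 16 added and 0.37 on the authors' values, and that of D against C was 0.13 with the 75th percentile, 0.98 with no normalization and 0.61 with the covariate. The ratio was 0.11 to 0.90 in D + P against C, 0.52 to 1.31 in D + P against C + P and 0.29 to 1.08 in D + P against D without 1 array, and the correlation was -0.22 to 0.66 without 1 array and 0.73 with no normalization. The causes were not tested.

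With the replicate number as a block, miR-143-3p in D against C was 0.47 with an adjusted p of 0.070 (limma), and miR-145a-5p in D + P against D was 0.42 with an adjusted p of 0.045 (limma). The test of miR-145a-5p again reuses the D + P signals of its selection. No other call of the mates changed. Same-numbered arrays of different groups correlated with -0.37 to 0.49 in their deviations from the group means, and 4 of 18 pairs were over 0.1. This shows no regular pairing by number, and with 3 arrays per group it cannot exclude one.

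The counts of miRNAs called ran without 1 array from 33 to 88 for D against C (64 with all arrays), 3 to 79 for C + P against C (47), 14 to 89 for D + P against D (69), 1 to 73 for D + P against C + P (17), 81 to 96 for the interaction (90) and 0 to 32 for D + P against C (2). With the covariate they were 1, 2, 0, 1, 0 and 13 in the same order, with 39 and 12 miRNAs at an unadjusted p under 0.05 by limma for the counts of 0. In D + P against C limma called 0 miRNAs on the authors' values, with 16 added and with all pairs, with 26, 24 and 20 at an unadjusted p under 0.05, and 0 without C replicate 2 and without C replicate 3 (13 and 16). With no filter, the counts were 5, 4, 0, 0, 2 and 0 (unadjusted 128, 69 and 35 of 1881 for the counts of 0). With only the 2 groups compared, D + P against D and D + P against C had 0 calls by limma, with 52 and 8 miRNAs at an unadjusted p under 0.05, and 0 by the methods' t-test after Benjamini-Hochberg adjustment, with 32 and 10. Scaling to the 75th percentile of all miRNAs was not run, since it equals the value of an undetected miRNA (0.1) on every array.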
